A study of Mus musculus with 4 samples.

Results

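The semaphorins, plexins and neuropilins were followed as 31 named genes, 20 semaphorins, 9 plexins and 2 neuropilins, and all 31 were found by symbol among the 32285 genes listed. They were read in single-cell RNA sequencing of tdTomato-positive cells sorted from the E14.5 mouse cerebellum. Control and conditional knockout (CKO) embryos alike carried Atoh1-Cre/+, a Cre driver, and R26LSL-tdT/+, a Cre-dependent tdTomato reporter. The CKO embryos were in addition En1lox/lox and En2lox/lox. Each group had 2 libraries, and animals were pooled before dissociation. Because Cre is driven from Atoh1, reporter and deletion mark the descendants of Atoh1-expressing cells of the rhombic lip, and the floxed genes En1 and En2, which encode homeodomain transcription factors, stay intact in other cells.

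Semaphorins are guidance cues that steer axons and migrating neurons. Those of class 3 are secreted, most others span the membrane, and Sema7a is held on the membrane by a lipid anchor. Plexins are the receptors, with a cytoplasmic domain that acts on small GTPases, and neuropilins are co-receptors that bind class 3 semaphorins and pass the signal through class A plexins. In the cerebellum, Plxnb2 is known from granule cell precursors, and Sema6a with its receptor Plxna2 from the migration of granule cells.

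Cells were sorted by their own unique molecular identifiers (UMIs), each a counted transcript molecule. Cells with more Pax6 than Meis2 UMIs (6948 cells) were set against cells with more Meis2 than Pax6 UMIs (3870 cells), since Pax6 is a granule cell lineage gene and Meis2 a marker of excitatory cerebellar nuclei neurons. Cells with an Olig2 UMI (759 cells) and cells with a Tbr1 or Lmx1a UMI (1067 cells) were taken across both. These sets overlap and are rules on UMIs, not cell types. To check them, marker lists were summed without the sorting genes Pax6, Meis2, Olig2, Tbr1 and Lmx1a. The 7 remaining markers of excitatory cerebellar nuclei neurons stood at 1922 to 2357 CPM (UMIs of the genes per 1000000 UMIs of the summed cells) in the 4 libraries of Meis2-over-Pax6 cells and at 1191 to 1501 CPM in Pax6-over-Meis2 cells. The 9 remaining granule cell lineage markers stood at 2945, 2705, 2798 and 3067 CPM in Pax6-over-Meis2 cells of control replicates 1 and 2 and CKO replicates 1 and 2. In Meis2-over-Pax6 cells they stood at 2078 and 1874 CPM in the controls but at 2814 and 3069 CPM in the CKO, so they did not separate the sets in the CKO libraries.

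The libraries held 14998150 to 33709450 UMIs and 2007 to 3931 kept cells. A kept cell had a median of 2734 UMIs in control replicate 1 and 2122 in control replicate 2, against 5352 in CKO replicate 1 and 5544 in CKO replicate 2, so depth followed the genotype. The same held among Pax6-over-Meis2 cells, with 3238 and 2339 UMIs against 13723 and 9819. Meis2-over-Pax6 cells made up 20.7% and 59.1% of the kept cells of the controls, against 28.6% and 10.1% of those of the CKO libraries, so control replicate 2 stood apart. Pairs of libraries shared 1 to 6 cell barcodes. En2 was at 109 and 134 CPM in Pax6-over-Meis2 cells of the controls and at 22.1 and 17.0 CPM in the CKO (log2 fold change -2.51, SE 0.24, edgeR adjusted p = 0.0115), and was called lower in the other 3 sets too. En1 was not called in any of the 4 sets (log2 fold change -0.29 in Pax6-over-Meis2 cells), with values of 171, 237, 93.0 and 212 CPM, and counts at the 3′ end need not read the deleted part. Of other cell types, the 10 GABAergic markers summed to 155, 124, 60.0 and 124 CPM in Meis2-over-Pax6 cells, where Ptf1a alone was at 0, and to 64.9, 97.4, 32.3 and 41.9 CPM in Pax6-over-Meis2 cells, lower in both CKO libraries. The endothelial markers summed to 1.71 to 8.79 CPM in both Pax6-over-Meis2 and Meis2-over-Pax6 cells. Haemoglobin and other erythroid RNA reached 3516 CPM in Meis2-over-Pax6 cells of control replicate 2 against 4.50 to 53.4 CPM in the other 3 libraries and 1296 and 910 CPM in Pax6-over-Meis2 cells of control replicate 2 and CKO replicate 1. Microglial markers reached 92.8 CPM in Meis2-over-Pax6 cells of control replicate 2 against 0.51 to 1.58 CPM in the other 3 libraries.

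Nrp1 and Sema3e, the co-receptor and the secreted ligand with the steepest rise between the sorted sides, and Sema7a and Plxnb2, which changed most clearly in opposite directions within Pax6-over-Meis2 cells, are shown by the 250 bases before an annotated start (RefSeq promoters, GRCm38.p6, the build the submitters' processing notes name as mm10). Each is written 5′ to 3′ on the gene's own strand, and capitals mark CAGCTG (an E-box, the kind of site that Atoh1 and Neurod1 proteins use) or TGACAG (a core of Meis-type sites).
Nrp1 (chr8:128358823-128359072, plus strand): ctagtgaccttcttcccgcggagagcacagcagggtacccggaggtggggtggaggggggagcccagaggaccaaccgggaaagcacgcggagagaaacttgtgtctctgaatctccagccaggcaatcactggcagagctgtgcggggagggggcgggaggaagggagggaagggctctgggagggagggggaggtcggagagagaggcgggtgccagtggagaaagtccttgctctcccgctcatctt
Sema3e (chr5:14025026-14025275, plus strand): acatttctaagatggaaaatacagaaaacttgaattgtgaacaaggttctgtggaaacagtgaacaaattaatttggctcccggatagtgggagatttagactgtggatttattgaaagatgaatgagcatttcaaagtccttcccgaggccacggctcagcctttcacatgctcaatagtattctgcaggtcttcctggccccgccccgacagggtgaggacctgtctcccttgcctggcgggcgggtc
Sema7a (chr9:57939862-57940111, plus strand): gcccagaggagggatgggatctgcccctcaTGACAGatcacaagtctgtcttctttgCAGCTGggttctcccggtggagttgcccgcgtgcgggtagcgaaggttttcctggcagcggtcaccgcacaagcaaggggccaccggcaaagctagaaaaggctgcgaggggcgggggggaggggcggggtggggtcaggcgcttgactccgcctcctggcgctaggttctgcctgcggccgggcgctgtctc
Plxnb2 (chr15:89180789-89181038, minus strand): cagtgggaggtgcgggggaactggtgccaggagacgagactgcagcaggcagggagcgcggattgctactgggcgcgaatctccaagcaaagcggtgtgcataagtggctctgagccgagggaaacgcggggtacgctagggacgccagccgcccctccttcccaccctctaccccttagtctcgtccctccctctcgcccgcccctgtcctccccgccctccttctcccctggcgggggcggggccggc
Sema7a had both motifs in its window and the other windows had neither on either strand. CAGCTG, a palindrome, was found in 4271 of 32851 promoters of this length and in 6 of the 37 that belong to 26 of the members. TGACAG, read on both strands, was found in 15.9% of all promoters and in 7 of those 37. TAATTA, a homeodomain core of the kind En proteins bind, was found in 4.84% of all promoters and in 0 of the 37. A match is only a run of letters, and binding was not measured. The Nrp1 window lies in an intron of a longer annotated transcript, and none of the 4 windows overlaps an annotated exon.

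The first comparison asks which guidance genes separate Meis2-over-Pax6 cells from Pax6-over-Meis2 cells within the same libraries. Both neuropilins, all 4 class A plexins and Plxnb1 were higher in Meis2-over-Pax6 cells, as were 11 semaphorins, with Sema3e furthest at 17.5-fold. In all, 18 of 27 members tested were called higher and 3 lower, where 25.3% of all 12387 genes tested were called higher and 27% lower. A gene was called when its Benjamini-Hochberg adjusted p, over all genes tested, was under 0.05 in edgeR's quasi-likelihood test with the library as a block. The members' median log2 fold change was 0.99, beside -0.01 over all genes tested. Sema3b, Sema3d, Sema3g and Plxnb3 had too few UMIs to be tested. Median UMIs per cell were 2617, 2172, 3110 and 2248 in Meis2-over-Pax6 cells against 3238, 2339, 13723 and 9819. Cycling genes summed to 369, 244, 773 and 511 CPM against 1877, 1498, 2218 and 1904 CPM. After thinning each cell to 2000 UMIs, 13 of 24 members were called higher and 3 lower, beside 1806 and 1835 of all 9940 genes. The part of cycling in these differences was not tested.

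**Figure D1:**
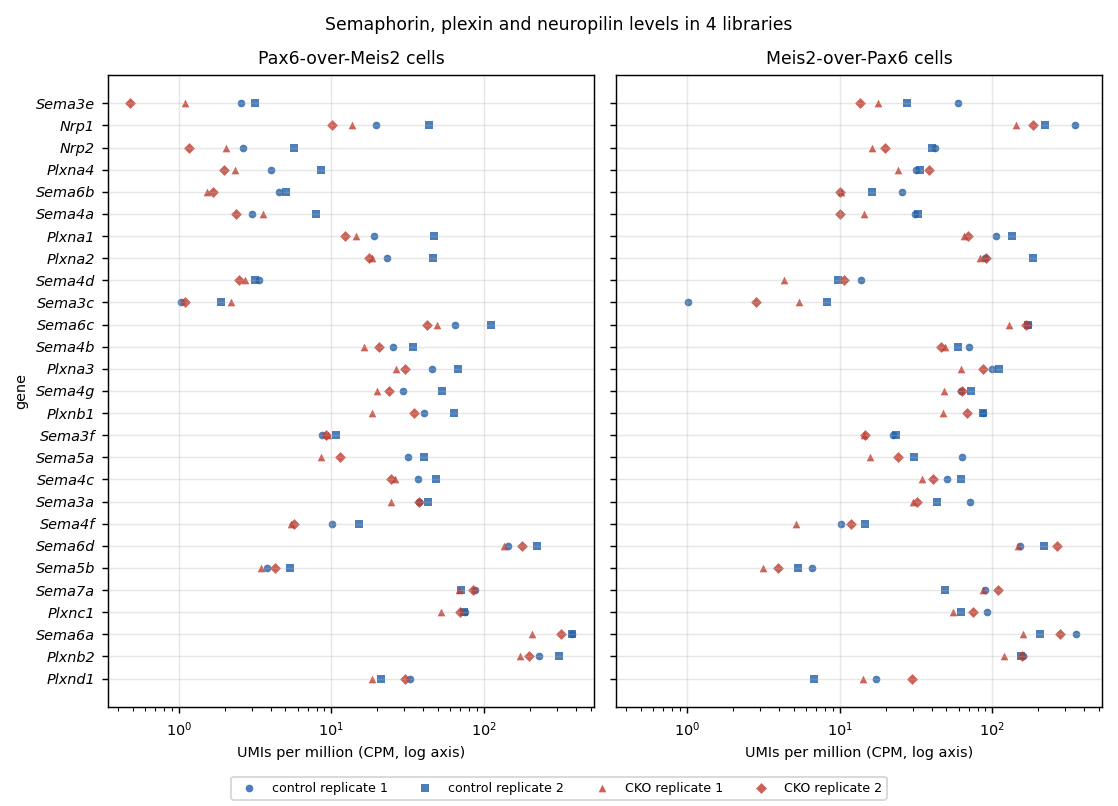
Levels in CPM (log axis) of the 27 members tested, in Pax6-over-Meis2 cells (left) and Meis2-over-Pax6 cells (right), with 1 point for each library (blue controls, red CKO). Genes are ordered by the log2 fold change between the panels, so Sema3e and Nrp1 at the top shift right by the widest margin and Plxnd1 and Plxnb2 at the bottom shift left.

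Among the co-receptors, Nrp1 (chromosome 8, 128358604 to 128503363) stood at 349 and 221 CPM in Meis2-over-Pax6 cells of control replicates 1 and 2 and at 142 and 185 CPM in CKO replicates 1 and 2. In Pax6-over-Meis2 cells the same libraries gave 19.7, 43.8, 13.6 and 10.0 CPM. No library of one set reached the other, and the difference was 11.2-fold (log2 fold change 3.48, SE 0.23, edgeR adjusted p = 2.22e-07). Nrp2, the second co-receptor, which prefers Sema3f and Sema3c, was at 42.2, 40.2, 16.3 and 19.7 CPM against 2.66, 5.68, 2.03 and 1.16 CPM, or 10.7-fold (log2 fold change 3.42, SE 0.22, edgeR adjusted p = 1.94e-07). Over 11 other settings the Nrp1 difference ranged from 3.21 to 3.83 and the Nrp2 difference from 3.13 to 3.75 on the log2 scale, and both stayed called.

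Class A plexins, the partners of neuropilins, were all higher in Meis2-over-Pax6 cells in every library, by unequal amounts. Plxna4 was at 31.5, 33.4, 23.99 and 38.2 CPM against 4.03, 8.51, 2.34 and 1.98 CPM (log2 fold change 3.15, SE 0.26). Plxna1 was at 106, 134, 65.6 and 69.1 CPM against 18.9, 46.7, 14.4 and 12.2 CPM (log2 fold change 2.10, SE 0.13). Plxna2, a receptor of Sema6a and Sema6b, was at 89.5, 186, 82.6 and 90.5 CPM against 23.0, 46.4, 18.5 and 17.5 CPM, with the smallest SE of the class (log2 fold change 2.06, SE 0.09, edgeR adjusted p = 3.85e-08). In each of these 3 genes control replicate 2 held the highest level on the Pax6-over-Meis2 side. Plxna3, which works with Nrp2 in Sema3f signalling, differed least, at 2.12-fold (log2 fold change 1.08, SE 0.11).

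Outside class A, the plexins did not move together. Plxnb1, a receptor of Sema4d, was 1.87-fold higher in Meis2-over-Pax6 cells (log2 fold change 0.90, SE 0.12). Plxnb2, a receptor of Sema4c and related class 4 ligands, was lower, at 158, 154, 119 and 156 CPM against 229, 310, 172 and 196 CPM (log2 fold change -0.67, SE 0.10, edgeR adjusted p = 0.000135). Plxnd1, which binds Sema3e directly without a neuropilin, was also lower (log2 fold change -0.73, SE 0.19). Its levels were 17.3, 6.78, 14.3 and 29.8 CPM against 32.8, 21.1, 18.6 and 30.3 CPM, so the values of the sets overlapped although each library moved the same way. In intact cells, here those of 4000 or more UMIs with 5% or less mitochondrial UMIs, the Plxnd1 difference was -0.20 and no longer called. Plxnc1, the receptor of Sema7a, had a log2 fold change of -0.01 (SE 0.09, edgeR adjusted p = 0.942).

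Of the secreted ligands, Sema3e (chromosome 5, 14025276 to 14256689) was at 59.5, 27.6, 17.9 and 13.5 CPM in Meis2-over-Pax6 cells and at 2.57, 3.15, 1.11 and 0.48 CPM in Pax6-over-Meis2 cells (log2 fold change 4.13, SE 0.23, edgeR adjusted p = 1.04e-07). Its receptor Plxnd1 thus stood lower on the side where the ligand stood higher. Sema3a, Sema3c, Sema3d and Sema3e all lie on chromosome 5 between 12383385 and 17730268, and they did not share a pattern. Sema3c rose less (log2 fold change 1.31, SE 0.33, in 3 of 4 libraries), Sema3a was not called (log2 fold change 0.22, SE 0.15, edgeR adjusted p = 0.247), and Sema3d had 10 UMIs in all Meis2-over-Pax6 cells. Sema3f on chromosome 9 was 1.82-fold higher and Sema3b, on the same chromosome, had 8 UMIs. Sema3g, with 0 UMIs in Meis2-over-Pax6 cells, was not detectable at this depth.

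Class 4 ligands, which span the membrane and signal mainly to class B plexins, were higher in 5 of 6 cases. Sema4a was at 31.03, 32.6, 14.48 and 10.1 CPM in Meis2-over-Pax6 cells against 2.998, 7.88, 3.57 and 2.36 CPM, or 5.01-fold (log2 fold change 2.32, SE 0.23). Sema4d, the ligand of Plxnb1, was 2.91-fold higher, Sema4b 2.31-fold, Sema4g 1.98-fold and Sema4c 1.33-fold. Sema4f was not called (log2 fold change 0.14, SE 0.21). The Sema4c call was lost in intact cells, where its log2 fold change was 0.39.

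Class 6, the transmembrane ligands of class A plexins, split by member. Sema6b was at 25.4, 16.4, 10.2 and 10.1 CPM in Meis2-over-Pax6 cells against 4.54, 5.05, 1.54 and 1.68 CPM (log2 fold change 2.33, SE 0.22), and Sema6c was 2.43-fold higher. Sema6a was lower, at 352, 205, 159 and 276 CPM against 377, 374, 206 and 319 CPM (log2 fold change -0.45, SE 0.11). It was the only semaphorin called lower in this comparison, and in intact cells its difference was -0.24 and not called. Sema6d, at 151, 218, 147 and 266 CPM against 144, 222, 134 and 178 CPM, was not called, and neither were Sema5b and Sema7a. Sema5a passed at an edgeR adjusted p of 0.0395 (log2 fold change 0.54, SE 0.20, higher in 3 of 4 libraries), but 8 of 11 other settings lost the call, and without control replicate 1 its log2 fold change was 0.38.

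**Figure D2:**
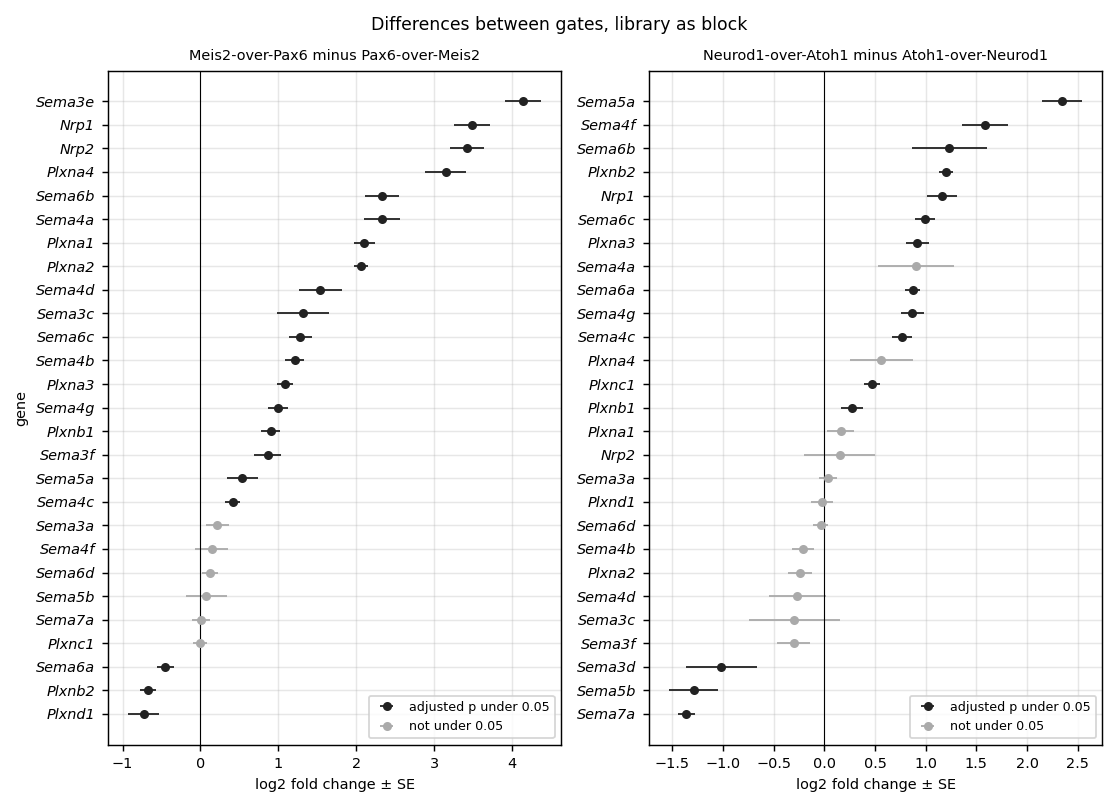
Log2 fold changes with their SE (edgeR, library as block) of the members between Meis2-over-Pax6 and Pax6-over-Meis2 cells (left) and, within Pax6-over-Meis2 cells, between those with more Neurod1 and those with more Atoh1 UMIs (right). Black points passed an adjusted p of 0.05. The order of genes differs between the panels, with Sema3e at the top on the left, Sema5a at the top on the right and Sema7a at the bottom on the right.

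Of the 50 co-receptors and cytoplasmic effectors of semaphorin signalling listed for comparison, 44 were tested, and 23 were higher and 7 lower in Meis2-over-Pax6 cells (median log2 fold change 0.33). Chl1, an adhesion molecule that joins neuropilin complexes, was at 190, 166, 136 and 184 CPM against 15.6, 27.1, 10.8 and 8.38 CPM (log2 fold change 3.57, SE 0.19). The others with the steepest rise were Met, a receptor tyrosine kinase that can associate with class B plexins (log2 fold change 3.52, SE 0.43), and the kinase Pak3 (log2 fold change 1.54, SE 0.10). Met was at only 2.72 to 6.10 CPM even on the high side. The steepest falls were in the small GTPases Rnd2 (log2 fold change -0.72, SE 0.11) and Rap1a (log2 fold change -0.56, SE 0.09) and in the actin-severing Cfl1 (log2 fold change -0.38, SE 0.11).

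Within the Pax6-over-Meis2 cells, those with more Neurod1 than Atoh1 UMIs (451 to 1364 cells a library) were compared with those with more Atoh1 than Neurod1 UMIs (94 to 758 cells). Atoh1 marks granule cell precursors and Neurod1 their differentiating progeny. Sema5a, Sema4f and Plxnb2 were higher on the Neurod1 side, and Sema7a, Sema5b and Sema3d on the Atoh1 side. Of 27 members tested, 12 were called higher with Neurod1, beside 22.8% of all 12417 genes tested, and 3 lower, beside 21.4%. The members' median log2 fold change was 0.27, beside -0.002 over all genes. Sema3e was not tested here.

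Sema5a, a transmembrane semaphorin with thrombospondin repeats, stood at 41.6, 55.4, 12.9 and 14.47 CPM on the Neurod1 side and at 7.35, 0, 2.82 and 3.71 CPM on the Atoh1 side, where the count of 0 in control replicate 2 allows up to 5.92 CPM. The difference was 5.08-fold (log2 fold change 2.35, SE 0.20, edgeR adjusted p = 2.4e-09), and each library's Neurod1 side was above every library's Atoh1 side. Plxnb2 was at 264, 367, 217 and 229 CPM against 116, 138, 94.4 and 108 CPM (log2 fold change 1.20, SE 0.07, edgeR adjusted p = 8.17e-12). Sema6a was at 436, 450, 238 and 356 CPM against 210, 237, 151 and 201 CPM (log2 fold change 0.87, SE 0.07, edgeR adjusted p = 3.61e-09). Both genes thus rose with Neurod1 in each library, while they were lower in Meis2-over-Pax6 than in Pax6-over-Meis2 cells.

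Sema7a ran the other way, at 51.4, 38.6, 35.3 and 54.6 CPM on the Neurod1 side against 137, 120, 110 and 119 CPM on the Atoh1 side (log2 fold change -1.36, SE 0.08, edgeR adjusted p = 1.58e-11), with no overlap between the sides. Its receptor Plxnc1 was 1.39-fold higher with Neurod1 (log2 fold change 0.47, SE 0.08). Sema5b, the paralogue of Sema5a, was at 1.76 to 2.76 CPM against 5.21 to 7.90 CPM (log2 fold change -1.29, SE 0.24). The 2 class 5 members were therefore called in opposite directions. Sema3d, also lower with Neurod1 (log2 fold change -1.02, SE 0.35), rested on 40 and 48 UMIs and lost its call in 5 other settings, among them without control replicate 1 (-0.80) and without CKO replicate 2 (-1.23).

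The co-receptors and class A plexins had log2 fold changes of -0.24 to 1.16 along this axis. Nrp1 was at 21.3, 41.6, 16.6 and 9.73 CPM with Neurod1 against 8.58, 17.8, 7.69 and 4.77 CPM with Atoh1 (log2 fold change 1.16, SE 0.14), higher in 4 of 4 libraries, with the call lost after thinning to 2000 UMIs (0.78), and Nrp2 was not called (log2 fold change 0.15, SE 0.35). Plxna3 was the only class A plexin called (log2 fold change 0.92, SE 0.11), and Plxna2 had -0.24 (SE 0.12, edgeR adjusted p = 0.0983). Sema6b, Sema6c, Sema4f, Sema4g and Sema4c were called higher, by 1.70-fold to 3.003-fold. The Sema6b call was kept in only 2 of the 5 other settings that gave the gene an adjusted p. Among the losses was the fit without control replicate 1 (log2 fold change 1.13). Plxnb1, at an edgeR adjusted p of 0.0439, was called with a log2 fold change of 0.27 (SE 0.11) and lost the call in 9 other settings, among them the fits that left out 1 of the 4 libraries, whichever it was. Of the effectors, 24 of 43 tested were higher and 3 lower with Neurod1 (median log2 fold change 0.41). The steepest were the neuropilin-associated adhesion molecule L1cam (log2 fold change 2.79, SE 0.10), the Cdk5 activator Cdk5r1 (log2 fold change 1.40, SE 0.08) and Micall2, a relative of the MICAL enzymes (log2 fold change 1.35, SE 0.27), against Rnd3 (log2 fold change -0.94, SE 0.07), Rras (log2 fold change -0.68, SE 0.23) and Rap1a (log2 fold change -0.27, SE 0.07), all small GTPases.

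Depth differs along this axis. Median UMIs per cell were 3510, 2756, 15454 and 11801 on the Neurod1 side and 6376, 3976, 16223 and 11746 on the Atoh1 side. When each cell was thinned to 2000 UMIs before sorting, 8 of 15 members tested were called, in place of 15 of 27. Fewer UMIs lay behind each value. Over all genes, 1809 of 7138 were called after thinning, in place of 5494 of 12417.

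Olig2, best known from precursors of oligodendrocytes, is also made by young cerebellar nuclei neurons. Among Meis2-over-Pax6 cells, the 25 to 266 cells a library with an Olig2 UMI had more Nrp1 and more Plxna2 than those without. Nrp1 was at 449, 343, 226 and 273 CPM with Olig2 against 342, 201, 121 and 167 CPM without (log2 fold change 0.77, SE 0.12, edgeR adjusted p = 0.000638). Plxna2 was at 142, 338, 105 and 116 CPM against 85.7, 160, 76.7 and 85.1 CPM (log2 fold change 0.78, SE 0.15, edgeR adjusted p = 0.00415). Both were higher with Olig2 in 4 of 4 libraries, though the values of the libraries overlapped between the sets. These were the only 2 of 25 members called, both higher, beside 0.428% of all 9583 genes called higher and 0.637% called lower. Without control replicate 2 the Plxna2 call was lost (log2 fold change 0.58), and without CKO replicate 1 the Nrp1 call was lost (log2 fold change 0.69). Sema6d came next (log2 fold change 0.58, SE 0.15, edgeR adjusted p = 0.0567, higher in 3 of 4 libraries). Of 39 effectors tested, 1 was called, Chl1 (log2 fold change -0.74, SE 0.17). Depth differed with this split: the median cell had 3183, 2650, 9391 and 10512 UMIs with Olig2 against 2579, 2116, 2925 and 2184 without, and 7.75%, 5.37%, 3.76% and 1.94% mitochondrial UMIs against 5.76%, 5.90%, 6.08% and 4.31%. Cycling genes summed to 127, 197, 1079 and 1635 CPM with Olig2 against 387, 252, 693 and 272 CPM without, and erythroid RNA in control replicate 2 to 13303 against 1859 CPM. Too few cells were left in some libraries to fit this comparison in intact or thinned cells, and the part of depth, cycling and erythroid RNA was not tested. Of the 4 oligodendrocyte precursor markers, Sox10 and Cspg4 were at 0 in the Meis2-over-Pax6 cells with Olig2, and the list summed to 15.0, 33.1, 19.7 and 12.8 CPM against 7.64, 7.93, 4.56 and 1.36 CPM without Olig2.

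Tbr1 marks a subset of cerebellar nuclei neurons, and Lmx1a marks nuclear neurons and unipolar brush cells. Meis2-over-Pax6 cells with a UMI of either (28 to 306 cells a library) had less Nrp1 and Sema3e and more Sema6d than the remaining ones. Nrp1 was at 157, 117, 116 and 112 CPM against 370, 240, 149 and 191 CPM (log2 fold change -0.81, SE 0.12, edgeR adjusted p = 9.99e-05), lower in 4 of 4 libraries. Sema3e was at 15.7, 17.4 and 10.1 CPM against 64.2, 29.5 and 19.8 CPM in control replicates 1 and 2 and CKO replicate 1, and in CKO replicate 2 it had 0 against 24 UMIs, where a count of 0 allows up to 24.1 CPM (log2 fold change -1.09, SE 0.29, edgeR adjusted p = 0.0363). Sema6d was at 215, 291, 158 and 361 CPM against 144, 204, 145 and 259 CPM (log2 fold change 0.40, SE 0.10, edgeR adjusted p = 0.0235). So Nrp1 stood higher with Olig2 and lower with Tbr1 or Lmx1a, each against the Meis2-over-Pax6 cells without those UMIs. Unipolar brush cell markers, a list that holds the sorting gene Lmx1a, summed to 429, 530, 219 and 305 CPM with Tbr1 or Lmx1a. In the cells without either, where the sorting rule sets Lmx1a to 0, they summed to 42.3, 55.8, 18.4 and 18.7 CPM. Part of that contrast was therefore fixed by the sorting. Cycling genes summed to 821, 235, 624 and 145 CPM with Tbr1 or Lmx1a against 321, 245, 810 and 538 CPM without. The part of these in the differences was not tested.

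Of 25 members tested with Tbr1 or Lmx1a, 2 were called lower, beside 0.918% of all 9912 genes, and 1 higher, beside 1.93%. Control replicate 2 supplied 306 of these cells, and without it none of the 3 calls was kept (log2 fold changes -0.68 for Nrp1, -1.42 for Sema3e and 0.36 for Sema6d). The Sema3e call was lost without each of the other libraries too, with log2 fold changes of -0.91 when control replicate 1 was left out, -1.17 for CKO replicate 1 and -1.03 for CKO replicate 2, and the Sema6d call was lost without control replicate 1 (0.37). Nrp2 varied widely, at 120, 45.6, 11.3 and 80.3 CPM against 33.8, 39.2, 17.6 and 15.1 CPM, and was not called (log2 fold change 0.67, SE 0.29, edgeR adjusted p = 0.362). Of 39 effectors tested, 1 was called, L1cam (log2 fold change 0.71, SE 0.12).

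**Figure D3:**
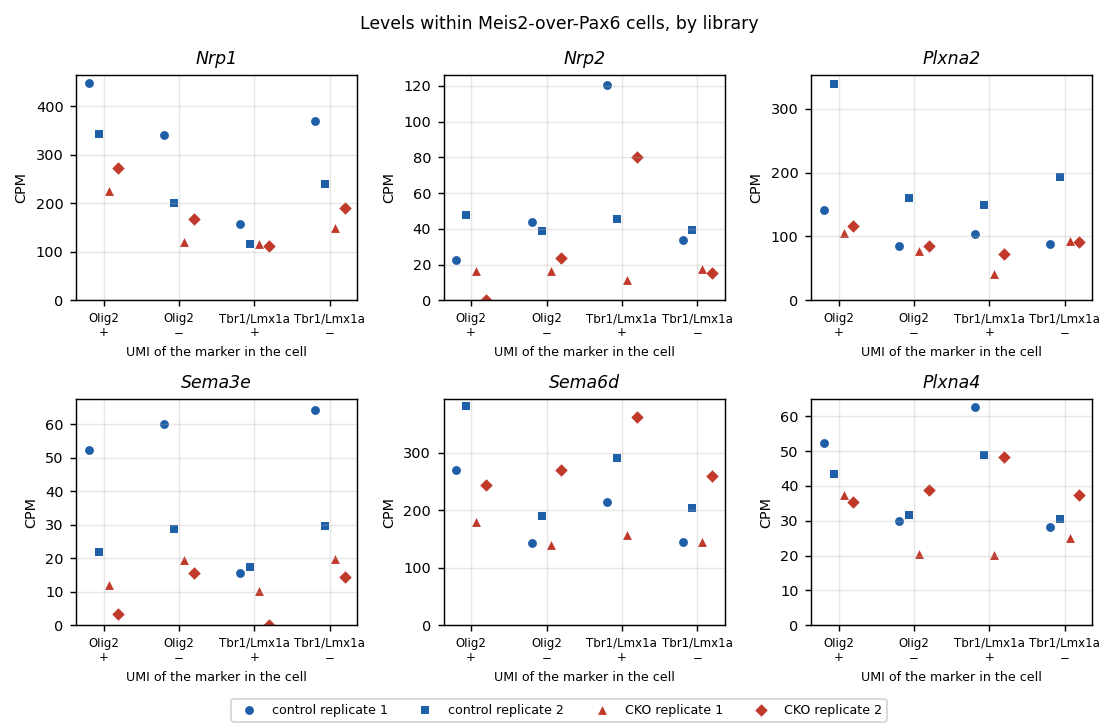
Levels in CPM of 6 members within Meis2-over-Pax6 cells, with 1 point for each library, in cells with and without an Olig2 UMI and with and without a Tbr1 or Lmx1a UMI. Nrp1 is higher with Olig2 and lower with Tbr1 or Lmx1a in each library, and Plxna2 in control replicate 2 with Olig2 reaches 338 CPM.

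The comparison of En1/2 CKO with control libraries asks whether loss of En1 and En2 changed these genes within each set of cells. With 2 libraries a group, p-values measure the spread between libraries of pooled animals. In Pax6-over-Meis2 cells 1 of 28 members was called by edgeR, Sema5a, beside 0.0574% of all 13931 genes tested. DESeq2 called the same 1 member, beside 64 lower and 21 higher of the 21414 genes to which it gave a p-value. Sema5a (chromosome 15, 32244810 to 32696341) was at 31.7 and 40.4 CPM in the controls and at 8.61 and 11.3 CPM in the CKO libraries (log2 fold change -1.71, SE 0.24, edgeR adjusted p = 0.0498). Both CKO libraries lay below both controls, and this also held in intact cells, at 18.9 and 29.3 CPM against 7.96 and 9.24 CPM.

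The Sema5a value lies next to the threshold. Over 13 other settings its log2 fold change ranged from -2.07 to -1.32, and 6 of them lost the call, among them the intact cells (edgeR adjusted p = 0.447), the fit without control replicate 2 (-1.52, edgeR adjusted p = 0.0921) and the fit without CKO replicate 1 (-1.54, edgeR adjusted p = 0.167). Sema5a was also the member with the steepest rise with Neurod1. In Pax6-over-Meis2 cells Atoh1 stood at 146 and 73.5 CPM in the controls and 197 and 159 CPM in the CKO. Neurod1 stood at 534 and 444 against 384 and 454 CPM. Cycling cells, those with 2 or more UMIs of the 6 cycling genes, made up 35.9% and 32.2% against 53.6% and 42.5% of the set. That share depends on depth, and the median cell had 3238 and 2339 against 13723 and 9819 UMIs. Without cycling cells the difference was -1.47 (edgeR adjusted p = 0.0473). Within Neurod1-over-Atoh1 cells the levels given above were 41.6 and 55.4 CPM in the controls against 12.9 and 14.47 CPM in the CKO, a description with no test of its own. The part of depth and of the balance between Neurod1 and Atoh1 cells in the Sema5a difference was not tested.

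Over all 28 members of this set, Sema5a included, 15 were lower and 0 higher at an unadjusted p under 0.05, beside 6.51% and 3.31% of all genes, and the median log2 fold change was -0.61, beside -0.01 over all genes. Without control replicate 2 the count was 4 of 28 (2.95% of all genes lower, members' median -0.30), and in intact cells it was 2 of 28 (2.09%, median -0.19). Both CKO libraries lay below both controls for 19 of 28 members, beside 34.9% of all genes. In intact cells that number was 9 of 28, beside 20% of all genes, and after thinning each cell to 2000 UMIs it was 19 of 28, beside 27.7%. Sema6b (log2 fold change -1.43, SE 0.38, edgeR adjusted p = 0.286), Plxna3 (-0.85, SE 0.24, edgeR adjusted p = 0.303) and Nrp1 (-1.25, SE 0.35, edgeR adjusted p = 0.303) came next after Sema5a. Meis2 was at 54.0, 191, 76.2 and 38.2 CPM in these cells and Nrp1 at 19.7, 43.8, 13.6 and 10.0 CPM. Control replicate 2 was highest and CKO replicate 2 lowest in both, but CKO replicate 1 had more Meis2 and less Nrp1 than control replicate 1. Without control replicate 2 the Nrp1 difference was -0.60, and in intact cells it was -0.82. Progenitor and glial markers summed to 1171 and 819 CPM in the controls and 1760 and 1223 CPM in the CKO, and cycling genes to 1877 and 1498 against 2218 and 1904 CPM. Without cycling cells 15 of 26 members were lower at an unadjusted p under 0.05 (6.06% of all genes). The part of Meis2 RNA, depth and the GABAergic and progenitor markers in these differences was not tested.

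In Meis2-over-Pax6 cells edgeR called 0 of 27 members and DESeq2 0 of the 23 to which it gave an adjusted p, where edgeR called 0.212% of all 11804 genes. At an unadjusted p under 0.05, 11 members were lower and 0 higher, beside 6.82% and 7.85% of all genes, and the median log2 fold change was -0.57, beside -0.01. By DESeq2, 7 of 30 were lower and 0 higher, beside 2% and 3.19% of all genes by DESeq2. The edgeR count was 7 of 27 without control replicate 2 (4.29% of all genes lower), 6 lower and 2 higher without control replicate 1 (4.64% and 5.13%), 7 lower and 2 higher without CKO replicate 1 (5.06% and 5.76%), and 1 of 25 after thinning to 2000 UMIs (2.74%), where the members' median was -0.21. The neuropilins and Sema3e, the members with the steepest rise between the sorted sides, were among the 11. Nrp2 was at 42.2 and 40.2 CPM in the controls and at 16.3 and 19.7 CPM in the CKO (log2 fold change -1.18, SE 0.24, edgeR adjusted p = 0.0916). Sema4a had -1.28 (SE 0.28, edgeR adjusted p = 0.103), Sema3e -1.32 (SE 0.35, edgeR adjusted p = 0.15), Plxna1 -0.81 (SE 0.22, edgeR adjusted p = 0.153) and Sema5a -1.17 (SE 0.34, edgeR adjusted p = 0.176). For each of these 5 genes both CKO libraries lay below both controls.

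That order of libraries held for 15 of 27 members, beside 24.6% of all genes, and in intact cells for 16 of 27, beside 23.7%. After thinning to 2000 UMIs it held for 6 of 27, beside 14.2%. Both CKO libraries lay above both controls for 0 of 27 members (19.8% of all genes), in intact cells for 0 (17.7%) and after thinning for 3 (18.6%). Nrp2 in the intact cells was at 23.996 and 41.6 CPM in the controls and 5.40 and 5.97 CPM in the CKO, where edgeR called it (log2 fold change -2.53, adjusted p = 0.022), and Nrp1 at 270 and 210 CPM against 114 and 139 CPM. Plxna4 did not show the lean (log2 fold change -0.08, SE 0.26), and Plxnd1 (0.98, SE 0.46, edgeR adjusted p = 0.356), Sema7a (0.56, SE 0.26, edgeR adjusted p = 0.355) and Sema6d (0.17, SE 0.30) had positive values. Fewer cells of a kind within the set and less RNA in each cell cannot be told apart in these sums. Other markers differed by genotype in this set. The granule cell lineage markers without Pax6 were higher in the CKO by the values given above, and Atoh1 alone stood at 94.6 and 41.5 CPM in the controls and 194 and 119 CPM in the CKO. Cycling genes summed to 369 and 244 against 773 and 511 CPM and progenitor and glial markers to 628 and 421 against 893 and 824 CPM. Control replicate 2 held 2322 of the 3870 cells and the erythroid and microglial RNA given above. The part of these in the lean was not tested.

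**Figure D4:**
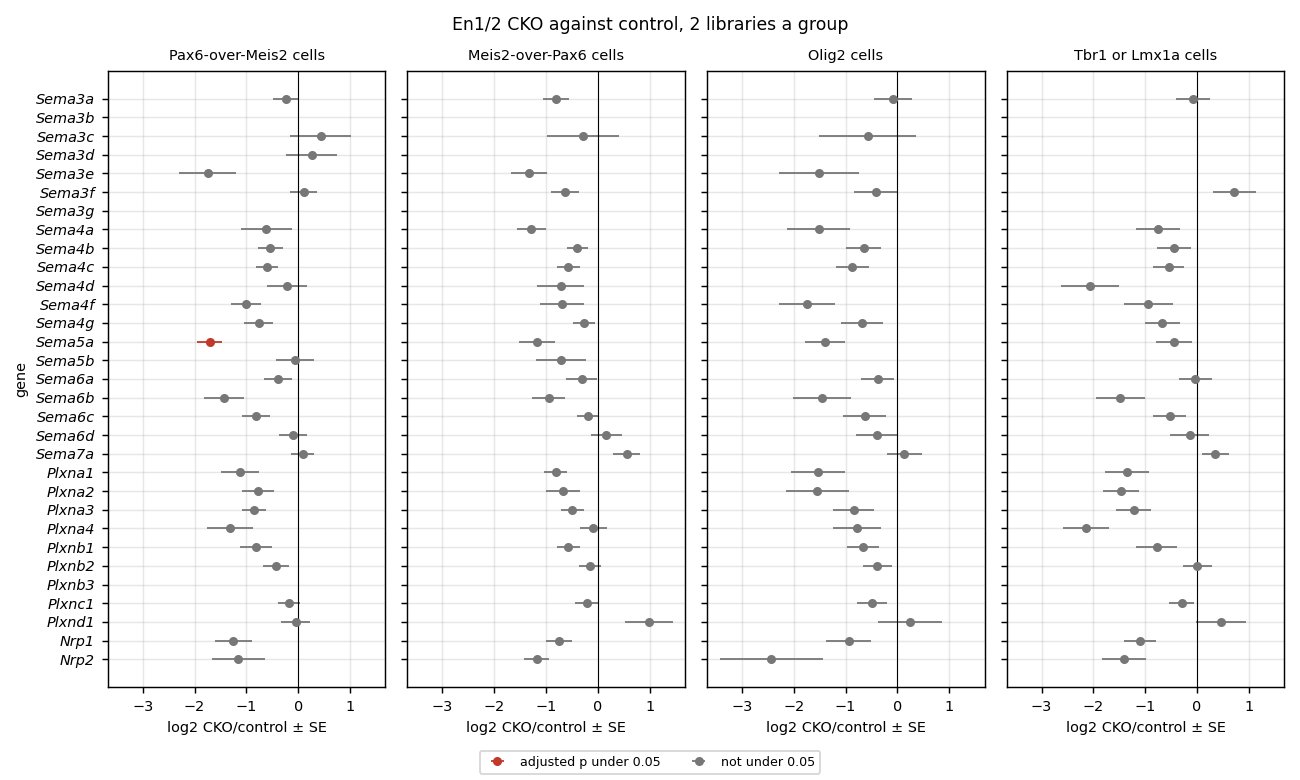
Log2 fold change with SE (edgeR) of each member tested between 2 CKO and 2 control libraries, in the 4 sets of cells. The only red point, with an adjusted p under 0.05, is Sema5a in Pax6-over-Meis2 cells, and most grey points lie left of 0, with Plxnd1 and Sema7a to the right of 0 in 3 or 4 of the sets.

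Cells with an Olig2 UMI, and those with a Tbr1 or Lmx1a UMI, were also compared between genotypes. In Olig2 cells edgeR called 0 of 25 members and DESeq2 0 of the 26 to which it gave an adjusted p, beside 0.019% of all genes by edgeR, and 8 members were lower and 0 higher at an unadjusted p under 0.05, beside 4.84% and 2.79% of all genes. The members' median log2 fold change was -0.68. By DESeq2, 5 of 30 were lower and 0 higher at that p, beside 1.63% and 1.12% of all genes by DESeq2. The edgeR count of lower members was 18 of 26 without control replicate 1 (12.2% of all genes lower, 1 member higher beside 12.6%), 2 of 25 without control replicate 2 (2.38%, median -0.28), 5 of 26 without CKO replicate 2 (2.91%), 3 of 21 in intact cells (1.84%, median -0.31), 0 of 6 after thinning (4.42%), 5 of 23 without the highest doublet scores (3.8%) and 2 of 17 with sorting by 2 or more UMIs (3.64%). Both CKO libraries lay below both controls for 13 of 25 members (23.3% of all genes), in intact cells for 6 (15.4%) and after thinning for 5 (17.8%). Sema5a had the lowest p (log2 fold change -1.40, SE 0.38, edgeR adjusted p = 0.473), at 22.0 and 28.5 CPM in the controls and 9.69 and 8.79 CPM in the CKO. Plxna2 stood at 58.7, 295, 66.5 and 51.1 CPM, so that control replicate 2 alone was high, and without that library the log2 fold change was 0.06 in place of -1.54. Nrp2, at 3.67, 40.7, 7.16 and 0.84 CPM, likewise changed sign without it, from -2.43 to 0.17.

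In cells with Tbr1 or Lmx1a, edgeR called 0 of 24 members and DESeq2 0 of the 19 to which it gave an adjusted p, beside 0.00981% of all genes by edgeR, and 8 were lower and 0 higher at an unadjusted p under 0.05, beside 5.47% and 3.47%. By DESeq2, 7 of 30 were lower and 0 higher at that p, beside 1.69% and 1.23% of all genes by DESeq2. The median log2 fold change of the members was -0.61. In intact cells it was 0.02, with 1 of 18 lower and 1 higher (1.85% and 0.85% of all genes), and after thinning 0 of 12 were lower (1.93%). The count was 14 of 26 without control replicate 1 (10.9%, 1 member higher beside 11.2%), 5 of 24 without control replicate 2 (3.37%), 5 of 17 with sorting by 2 or more UMIs (7.04%) and 3 of 22 with only Meis2-over-Pax6 cells (3.35%, 1 member higher beside 3.68%). Both CKO libraries lay below both controls for 15 of 24 members (24.3% of all genes), in intact cells for 3 (14.2%) and after thinning for 5 (14.6%). They lay above both controls for 2 (18.3% of all genes), in intact cells for 5 (15.5%) and after thinning for 4 (18.3%). Plxna4 was at 20.5 and 44.1 CPM in the controls and at 6.66 and 8.24 CPM in the CKO (log2 fold change -2.14, SE 0.45, edgeR adjusted p = 0.341). Plxna2 (-1.47, SE 0.35, edgeR adjusted p = 0.371) and Sema4d (-2.06, SE 0.55, edgeR adjusted p = 0.44) came next, and Plxna3, Nrp1, Nrp2, Plxna1 and Sema6b made up the 8. All 4 class A plexins and both neuropilins were thus among the 8 at that unadjusted p, while Plxnb2 had a log2 fold change of 0.01 (SE 0.28).

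The makeup of both sets differed by library. Of the Olig2 cells, 25.9%, 72.7%, 47.1% and 17.5% had more Meis2 than Pax6 UMIs, and of the cells with Tbr1 or Lmx1a 34.0%, 59.9%, 36.0% and 18.9%, with control replicate 2 highest and CKO replicate 2 lowest in both sets. Nrp1 and Plxna1 were also highest and lowest in those libraries, but not every member was. Plxna4 in the Tbr1 or Lmx1a cells was lowest in CKO replicate 1. Restricted to Meis2-over-Pax6 cells, an alternative chosen after seeing the data, 2 of 21 members were called lower in Olig2 cells and 0 higher. They were Plxna2 (log2 fold change -1.27, edgeR adjusted p = 0.0202) and Plxna1 (-1.30, edgeR adjusted p = 0.0217). Of all 7815 genes tested in that fit 137 were called lower and 219 higher, against 2 of 10524 called in the unrestricted Olig2 cells. In cells with Tbr1 or Lmx1a the restricted fit called 0 of 22 members and 0 of all 7553 genes. In those Meis2-over-Pax6 cells with Olig2, the cycling genes and erythroid RNA given above differed by library too. Microglial markers reached 468 CPM in the Tbr1 or Lmx1a cells of control replicate 1 and 137 CPM in the Olig2 cells of control replicate 2, against at most 10.4 CPM in the other libraries. Erythroid RNA reached 9640 CPM in the Olig2 cells of control replicate 2, the library that alone was high for Plxna2 and Nrp2, against 1.26 to 18.4 CPM in the other 3 libraries, and 4584 CPM in its Tbr1 or Lmx1a cells against 23.8 CPM or less. GABAergic markers summed to 78.9 and 61.8 CPM in the Olig2 cells of the controls and 23.2 and 26.8 CPM in those of the CKO, with Ptf1a at 0, and oligodendrocyte precursor markers to 22.0 and 32.5 against 13.1 and 14.2 CPM, with Sox10 at 0. Both sets were deeper after CKO. The median Olig2 cell had 4234 and 2606 UMIs (controls) against 13268 and 14646 (CKO). The median cell with Tbr1 or Lmx1a had 3085 and 2547 against 5640 and 5264. With controls listed first, cycling genes summed to 1815, 491, 2215 and 2618 CPM among Olig2 cells. Among Tbr1 or Lmx1a cells the sums were 1549, 377, 1809 and 1682 CPM, so control replicate 2 was lowest each time. The part of depth, cycling, the other markers and the makeup in the genotype differences was not tested.

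Whether the CKO effect differed between Meis2-over-Pax6 and Pax6-over-Meis2 cells was tested with an interaction term. EdgeR called 0 of 27 members, beside 0.114% of all 13146 genes, and DESeq2 0 of the 16 to which it gave an adjusted p. At an unadjusted p under 0.05 there were 6 members by edgeR, beside 5.64% of all genes. DESeq2 gave 2 higher and 0 lower, beside 0.89% and 0.194% of all genes by DESeq2. In intact cells edgeR gave 2, 1 each way (3.99% of all genes lower and 6.5% higher). The members' median difference was 0.25, with 0.42 without control replicate 1 and 0.093 without CKO replicate 2. The 6 had Plxnd1 (difference of log2 fold changes 0.98, SE 0.29, edgeR adjusted p = 0.442) and Plxna4 (1.25, SE 0.40, edgeR adjusted p = 0.509) first. Sema5a, called on 1 side only, had a difference of 0.58 (SE 0.36, edgeR adjusted p = 1), so its effect was not shown to differ. None of the effectors was called between genotypes by edgeR in any of the 4 sets. In Pax6-over-Meis2, Meis2-over-Pax6, Olig2 and Tbr1 or Lmx1a cells, 10 of 46, 5 of 41, 5 of 39 and 4 of 39 had an unadjusted p under 0.05. Of these 7, 2, 5 and 4 were lower. Over all genes the counts were 1368 of 13931, 1732 of 11804, 803 of 10524 and 912 of 10196, with 907, 805, 509 and 558 lower. DESeq2 called 1 effector, L1cam in Pax6-over-Meis2 cells (log2 fold change -1.14, DESeq2 adjusted p = 0.0184).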

How the data were processed

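Overlapping sets of cells were compared in 4 libraries of 10x 3′ single-cell RNA sequencing, 2 control and 2 En1/2 CKO. Each deposited matrix holds raw UMI counts for each gene and cell barcode, made by the authors with Cell Ranger 5.0.0 on mm10 per the submitters' processing notes. No normalization was applied to them. Per the labels, animals were pooled and 2 replicate experiments were done, but no label ties a library to an experiment or says that libraries came from separate litters, so p-values measure the spread between libraries, which may be technical.

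Barcodes with at least 500 genes, 1000 or more UMIs and no more than 10% mitochondrial UMIs were kept (12546 cells, of which 1728 had equal Pax6 and Meis2 counts). Doublets were not removed, and removing the top scores of a simulated-doublet classifier (68, 124, 32 and 109 cells) was an alternative. Counts were summed over the cells of a set in each library. EdgeR 4.0.16 in R 4.3.3 (quasi-likelihood test, TMM, filterByExpr, two-sided) was fitted on all genes with Benjamini-Hochberg adjustment over them and a threshold of 0.05. Comparisons between sets had the library as a block. SEs were derived from the F statistic, as the absolute log2 fold change divided by its root. Levels are plain CPM of the sums, and TMM factors ranged from 0.925 to 1.08. DESeq2 1.42.0 was an alternative, as were no low-count filter, leaving out each library, intact cells and sorting by 2 or more UMIs. So were thinning to 2000 UMIs (which left out 940, 1786, 422 and 1099 cells), a replicate block between genotypes and no library block between sets. The fits were tested on simulated counts. Tables were made with Python 3.11.15. All 31 members are named. Of the 50 effectors, up to 3 called each way with the largest change are named, and L1cam between genotypes and Nrcam were added after their values were seen. The members, the lists and the rules for sorting cells were chosen with earlier results of these data known. Positions are from GENCODE M21 (GRCm38), which held 32158 of the 32285 gene IDs. Reads shared between related genes were not examined.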

Additional observations from a re-analysis of the deposited data

Results flagged for a closer look

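A difference between cell sets in the CKO effect was tested and passed for Nrcam, an adhesion molecule of the effector list that can bind neuropilins. Its log2 CKO effect was higher by 1.134 in Meis2-over-Pax6 than in Pax6-over-Meis2 cells (SE 0.18, edgeR adjusted p = 0.0275). Nrcam was at 213 and 283 CPM in the controls and 336 and 367 CPM in the CKO in Meis2-over-Pax6 cells, and at 209 and 255 CPM against 136 and 148 CPM in Pax6-over-Meis2 cells. Neither effect passed on its own.

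Sema4d moved in opposite directions by genotype when Meis2-over-Pax6 cells with an Olig2 UMI were set against those without. On the log2(CPM + 1) scale control replicates 1 and 2 gave differences of 0.12 and 0.68, CKO replicates 1 and 2 gave -0.37 and -3.80, and the means of the groups differ by 2.49. This difference was not tested. CKO replicate 2 had 0 Sema4d UMIs in its 25 Olig2 cells, which allows up to 9.64 CPM. With 2 libraries a group, no library could be examined as an outlier within its group.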

How the results depend on the processing

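The calls between sorted sets were the most stable. Between Meis2-over-Pax6 and Pax6-over-Meis2 cells 205 of 222 values of called members kept their direction and call. Along the Neurod1 and Atoh1 axis 136 of 154 did. On that axis thinning to 2000 UMIs left 8 of 15 members tested called, in place of 15 of 27. It gave Plxna2 a log2 fold change of 0.75 in place of -0.24. Counts of members called between genotypes depended on the settings. In Pax6-over-Meis2 cells 1 member was called in the reported fit. Without the low-count filter 4 of 31 were called, all lower, beside 275 lower and 73 higher of 21414 genes. With the replicate block, in intact cells, without the highest doublet scores or with sorting by 2 or more UMIs, 0 were called. With 1 library left out the members' median log2 fold change ranged from -0.91 (control replicate 1) to -0.30 (control replicate 2). Against the 0 reported, Meis2-over-Pax6 cells had 5 of 30 without the filter, all lower, beside 263 lower and 296 higher of 19508 genes. In intact cells 1 of 23 was called lower, beside 24 lower and 18 higher of 9072 genes. With 1 library left out the members' median ranged from -0.70 (CKO replicate 2) to -0.46 (control replicate 2). Olig2 cells had 2 of 21 when only Meis2-over-Pax6 cells were used, beside 137 lower and 219 higher of 7815 genes. With 1 library left out the members' median in Olig2 cells ranged from -1.16 (control replicate 1) to -0.28 (control replicate 2). Cells with Tbr1 or Lmx1a had 5 of 30 without the filter, all lower, beside 171 lower and 85 higher of 17841 genes. Their members' median ranged from -0.91 (control replicate 1) to -0.31 (control replicate 2) with 1 library left out. In the interaction the members' median difference ranged from 0.093 (CKO replicate 2) to 0.42 (control replicate 1) with 1 library left out. Within Meis2-over-Pax6 cells, the 2 members called with Olig2 became 1 to 3 with 1 library left out and 4 without the highest doublet scores. The 3 came without CKO replicate 2, beside 79 higher and 64 lower of 10058 genes. The 4 came beside 96 higher and 92 lower of 9416 genes. The 3 called with Tbr1 or Lmx1a became 0 to 3 with 1 library left out and 1 with DESeq2, which called 35 of all genes lower and 95 higher. When the library was not used as a block, 0 members were called in either comparison. Signs turned for Nrp2 in Pax6-over-Meis2 intact cells (0.73 in place of -1.16), for Sema7a in the interaction in intact cells (-0.46 in place of 0.49), and in Olig2 cells without control replicate 2 for Plxna2 (range with 1 library left out -2.27 to 0.057) and Nrp2 (-4.57 to 0.17). The cause was not tested.

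Over all genes, the counts called between genotypes were 8, 25, 2 and 1 in Pax6-over-Meis2, Meis2-over-Pax6, Olig2 and Tbr1 or Lmx1a cells and ranged over the settings from 0 to 348, 0 to 763, 0 to 1308 and 0 to 461. The interaction had 15 (10 to 422), the Olig2 comparison 102 (2 to 207), the Tbr1 or Lmx1a comparison 282 (5 to 400), the Neurod1 and Atoh1 axis 5494 (1809 to 5725) and the sorted sides 6473 (3608 to 7051). Libraries with the same replicate number did not deviate together (correlations -0.16, -0.21, -0.31 and -0.10 in the 4 sets), and what else they share is not given in the labels. A replicate block with crossed numbers, chosen after seeing the data, called 3, 7, 6 and 1 members, all lower. Over all genes it called 165 lower and 42 higher of 13931, 316 and 447 of 11804, 247 and 202 of 10524, and 40 and 18 of 10196. Within Meis2-over-Pax6 cells, the Olig2 and the Tbr1 or Lmx1a comparisons were not run in intact cells, after thinning or with sorting by 2 or more UMIs, where a library had 4 to 14 cells in a set. Sparse members are limited by depth: Sema3b, Sema3d, Sema3g and Plxnb3 had 13 to 121 UMIs in all kept cells.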
